A study of Mus musculus with 30 samples.

Results

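The phagocyte NADPH oxidase genes described here are Cyba, Cybb, Ncf1, Ncf4, Rac2 and Hvcn1. They were picked by gene symbol from a table of transcript abundance, in which they account for 6 of 13483 symbols and for 8 of 14225 transcripts, since Ncf1 and Hvcn1 are each listed with 2 transcripts. The table covers microglia, the resident macrophages of the brain, isolated from the whole brain of C57BL/6J mice with magnetic beads against CD11b. Pregnant dams were given saline (Saline) or poly(I:C), a synthetic mimic of viral RNA that induces maternal immune activation (MIA), and the microglia of their offspring were collected at E17, P7, P20 and P60. At P60 the offspring of either kind of dam had been kept on control chow (CTRL), or on chow with PLX5622, an inhibitor of the CSF1 receptor that depletes microglia, before a return to control chow and regrowth of the population (MG-REP). Each of the 10 groups had 3 libraries, which stand for litter pools at E17, for pools of 3 brains at P7 and for single brains at P20 and P60. No label says which libraries shared a dam, so the p-values below measure the spread between these libraries. The 7 microglia markers checked, among them Tmem119 and P2ry12, summed to between 16294 and 51118 TPM per library. Markers of other cells were present too, and their sums reached 5595.61 TPM for neutrophils and monocytes, 2619.37 for oligodendrocytes, 2067.61 for border macrophages, 862.75 for neurons and 8.55 for B cells.

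The phagocyte oxidase passes electrons from NADPH across a membrane to oxygen and so makes superoxide. Its catalytic core is a membrane cytochrome made of gp91phox (Cybb) and p22phox (Cyba), and each subunit stabilizes the other as a protein. In resting cells the organizers p47phox (Ncf1) and p40phox (Ncf4) stay in the cytosol, and they join the cytochrome together with the GTPase Rac2 when the phagocyte is activated, while the voltage-gated proton channel Hv1 (Hvcn1) carries out the charge that the electron flow leaves behind. In the brain, microglia are a main source of superoxide from this enzyme.

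The stretches of the Cybb and Ncf1 promoters that match motifs of myeloid and interferon-driven transcription are shown because these genes had the 2 largest increases described below. Promoter windows of 300 bases, from 250 before to 50 after the start, were taken from RefSeq for 3 of the 6 genes, Cyba, Cybb and Ncf1 (build GRCm38.p6). Both strands were searched for GAGGAA, the core of sites of the myeloid factor PU.1, and for GAAA, any 2 bases and GAAA again, the paired repeat of interferon-stimulated response elements. The first was found in 28.3% and the second in 3.44% of the 32851 promoters of the same length, and the matches below do not overlap each other. Each line reads 5′ to 3′ on the strand of the gene, which is the minus strand, with the match in capitals.
Cybb, PU.1 core on the opposite strand, first base at position 10 of the transcript, chrX:9469298-9469327: tgctgttttcatTTCCTCatcagaagaaga
Cybb, interferon repeat on the opposite strand, first base at position -168, chrX:9469473-9469502: tagcagtagcTTTCATTTTCcagtgtattt
Cybb, interferon repeat on the opposite strand, first base at position -124, chrX:9469429-9469458: cacaagatctTTTCTCTTTCtgtagttttt
Cybb, interferon repeat, first base at position -29, chrX:9469334-9469363: tctgataataGAAAAGGAAAcctattgccc
Ncf1, interferon repeat, first base at position -82, chr5:134229688-134229717: aaaattctcaGAAAGTGAAAgactaagtct
The Cybb window thus held 3 interferon repeats and 1 PU.1 core, the Ncf1 window held 1 interferon repeat, and neither motif was found in the letters of the Cyba window. Windows of Ncf4, Rac2 and Hvcn1 were not used here.

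The components differed widely in transcript level, given here in TPM, the length-corrected share of a transcript in its library, scaled to the same total in each. Over all 30 libraries the mean was 201 TPM for Rac2 (NM_009008, chr15:78559169-78572783), 132 TPM for Cyba (NM_007806, chr8:122424771-122432940), 119 TPM for Ncf4 (NM_008677, chr15:78244164-78262582) and 102 TPM for Cybb (NM_007807, chrX:9435252-9487766). Transcripts of Ncf1 (chr5:134220053-134229628) averaged 5.85 TPM for NR_104383, a non-coding record, and 0.846 TPM for NM_001286037. Hvcn1 (chr5:122206805-122242297) averaged 2.28 TPM for NM_001042489 and 0.519 TPM for NM_028752. Only 2 of the 3 RefSeq transcripts of Ncf1, 2 of the 3 of Hvcn1 and 1 of the 2 of Cyba were in the table. How reads were divided between transcripts of a gene is not known here, so these values may not give the level of the whole gene. The low transcripts rest on few reads, which for NM_028752 were estimated at 0 to 12.8 per library, while Cybb had 315 to 13446 estimated reads.

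**Figure D1:**
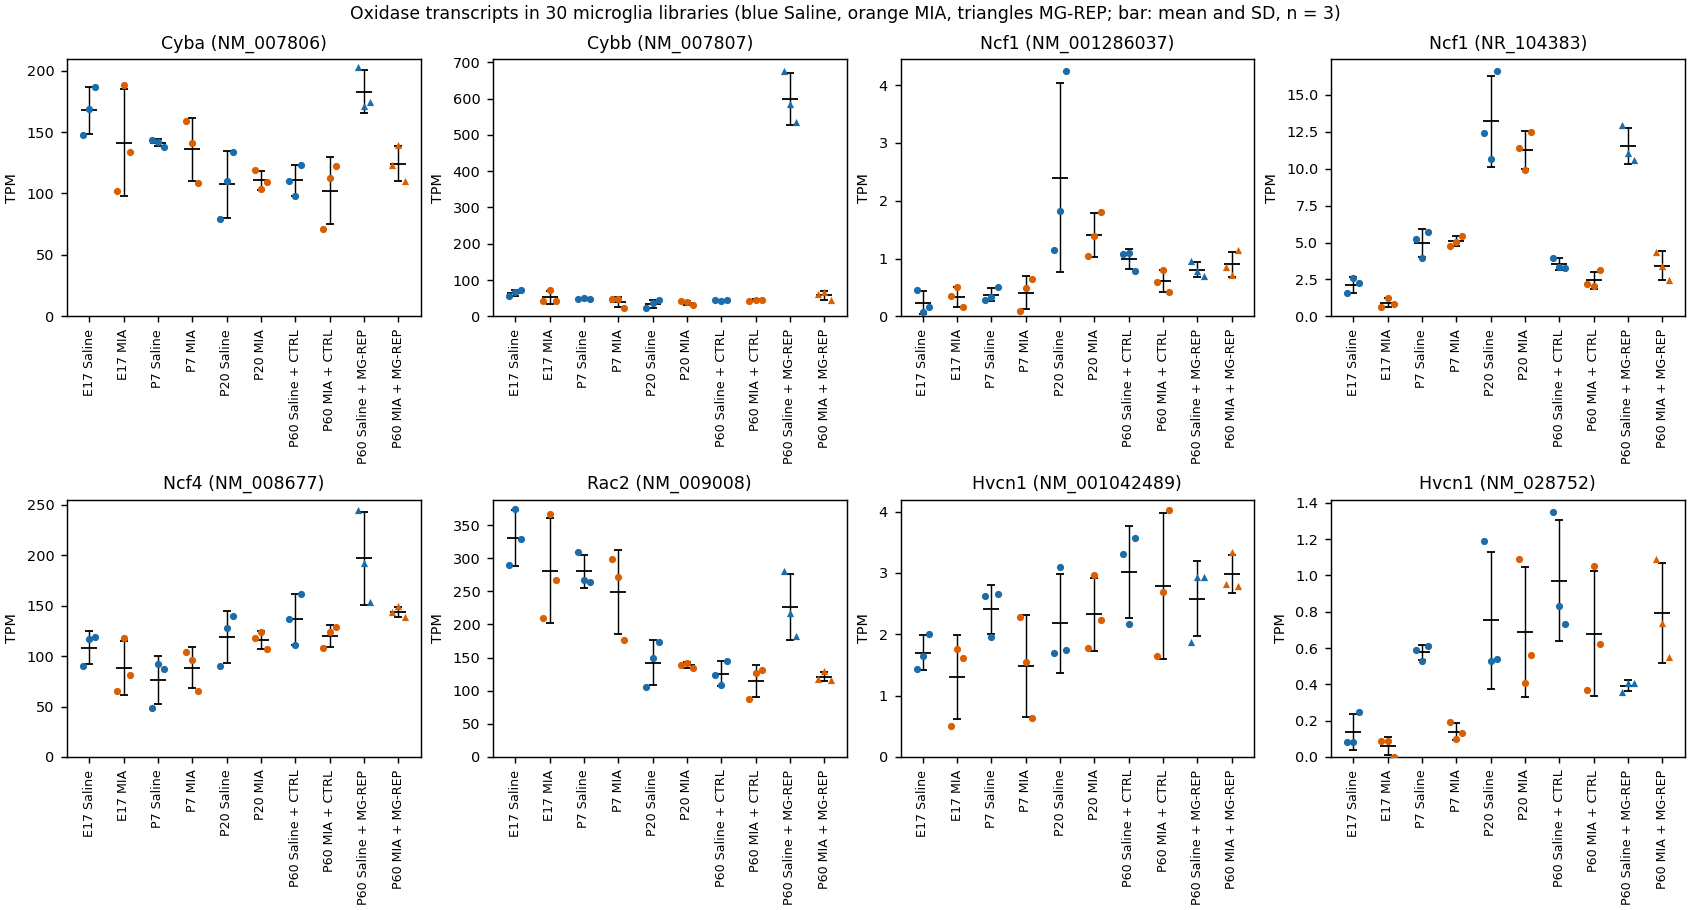
TPM of the 8 oxidase transcripts in each of the 30 libraries, 1 panel per transcript with its own linear axis from 0. Points are libraries (blue Saline, orange MIA, triangles MG-REP) and bars are the mean and SD of 3 libraries. In the Cybb panel the 3 Saline + MG-REP libraries stand at 536.82 to 676.24 TPM, and every other library is at or under 73.69 TPM.

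The effect of repopulation was examined first in offspring of saline dams, where 4 of the 8 oxidase transcripts were higher in Saline + MG-REP than in Saline + CTRL and 1 was lower. Of all 14225 transcripts, 11.9% were higher and 14.9% lower in this comparison (limma on log2(TPM + 1) with all 10 groups, two-sided, adjusted p under 0.05). The median log2 fold change of the oxidase transcripts was 0.62, against -0.14 for all transcripts.

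Cybb, the catalytic subunit, had the largest change of the set. Its level was 44.73, 43.38 and 44.65 TPM in the 3 Saline + CTRL libraries and 676.24, 584.58 and 536.82 TPM in the 3 Saline + MG-REP libraries. The repopulated libraries were all far above the controls, and the groups did not overlap. Mean TPM rose 13.5-fold, from 44.3 ± 0.757 to 599 ± 70.9 (SD, n = 3 each), a log2 fold change of 3.72 ± 0.24 (SE, limma adjusted p = 3.61e-11). Ordered by log2 fold change, Cybb was number 39 of the 14225 transcripts.

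Cyba, its partner in the cytochrome, moved far less. It was 110.18, 98.22 and 123.54 TPM in Saline + CTRL and 202.76, 171.09 and 174.14 TPM in Saline + MG-REP. All repopulated libraries lay above all controls, and the mean was 1.65-fold higher, with a log2 fold change of 0.72 ± 0.20 (SE, limma adjusted p = 0.0103). Without library 1 of Saline + MG-REP the change was 0.64 and no longer passed the test (limma adjusted p = 0.0571). The ratio of Cybb to Cyba TPM was 3.28 ± 0.174 in Saline + MG-REP (SD, n = 3, range 3.08 to 3.42) and ran from 0.215 to 0.579 with a median of 0.371 in the other 27 libraries, so that the order of the cytochrome transcripts was inverted in this group.

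**Figure D2:**
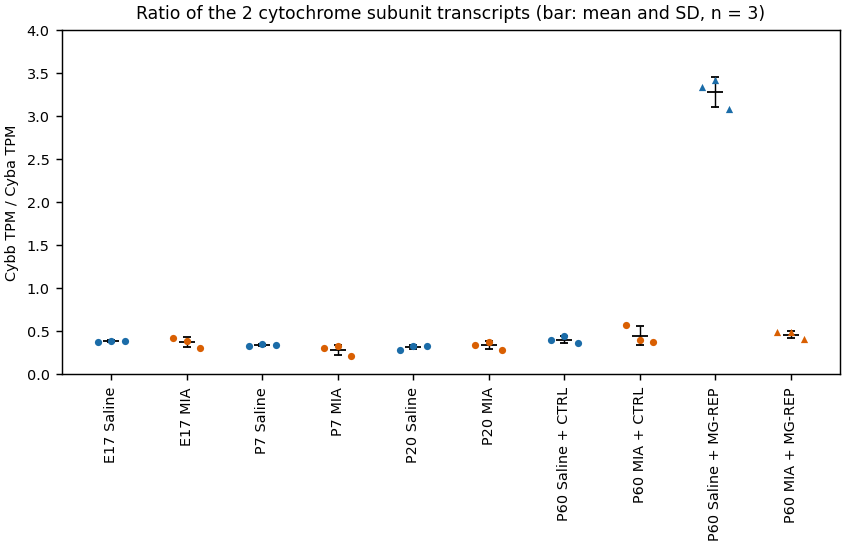
Ratio of Cybb to Cyba TPM in each library, on a linear axis from 0, by group, with the mean and SD of 3 libraries (blue Saline, orange MIA, triangles MG-REP). Saline + MG-REP lies at 3.08 to 3.42 and every library of the other 9 groups at or under 0.579.

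Among the cytosolic organizers, the Ncf1 transcript NR_104383 rose with Cybb. It was 3.98, 3.31 and 3.25 TPM in Saline + CTRL and 12.93, 11.09 and 10.6 TPM in Saline + MG-REP. The groups did not overlap, the mean was 3.28-fold higher, and the log2 fold change was 1.47 ± 0.20 (SE, limma adjusted p = 4.56e-06). The other Ncf1 transcript, NM_001286037, did not pass the test, at 0.987 ± 0.17 TPM in Saline + CTRL and 0.81 ± 0.131 TPM in Saline + MG-REP (SD, n = 3 each). The change in Ncf1 is therefore known for 1 of its measured transcripts only.

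Ncf4, the p40phox organizer that binds phosphoinositides of the phagosome, was 136.93, 111.06 and 161.06 TPM in Saline + CTRL and 245.21, 192.1 and 153.76 TPM in Saline + MG-REP. The third repopulated library lay within the range of the controls, and the difference of 0.52 ± 0.23 (log2, SE) missed the threshold (limma adjusted p = 0.108).

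Rac2, the haematopoietic GTPase of the active complex, was 122.92, 109.19 and 145.31 TPM in Saline + CTRL and 280.44, 217.89 and 181.98 TPM in Saline + MG-REP. The groups did not overlap, and the mean was 1.80-fold higher (log2 fold change 0.83 ± 0.21, SE, limma adjusted p = 0.00455). Its widely expressed relative Rac1 was 616 TPM on average in Saline + CTRL and 687 TPM in Saline + MG-REP and did not pass the test (log2 fold change 0.15 ± 0.08, limma adjusted p = 0.153).

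The measured transcripts of the proton channel did not rise. Hvcn1 NM_028752 was 1.35, 0.83 and 0.73 TPM in Saline + CTRL and 0.36, 0.41 and 0.41 TPM in Saline + MG-REP, which is -0.49 ± 0.16 on the log2 scale (SE, limma adjusted p = 0.0304). The groups did not overlap, but the repopulated libraries held about 4.22 reads each by estimate, against 8.41 to 12.8 in the controls. The call was lost under 7 of 13 other settings, among them the omission of library 1 of Saline + CTRL (limma adjusted p = 0.179). Hvcn1 NM_001042489, the more abundant transcript, was 3.02 ± 0.745 TPM in Saline + CTRL and 2.58 ± 0.609 TPM in Saline + MG-REP (SD, n = 3 each), which overlap.

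Marker levels of the Saline + MG-REP libraries also differed from those of Saline + CTRL, not all in the same direction. The 13 measured neutrophil and monocyte markers summed to 93.8, 5595.61 and 383.13 TPM in libraries 1, 2 and 3 of Saline + MG-REP and to 797.6 to 949.84 TPM in Saline + CTRL. Cybb was 676.24, 584.58 and 536.82 TPM in the same libraries, and their part in the result was not tested. The lists did not move as a whole. S100a8, a neutrophil gene, ran from 15.24 to 2753.57 TPM in Saline + MG-REP and from 394.77 to 472.99 TPM in Saline + CTRL, whereas Ccr2, a monocyte receptor, was at 49.87 to 64.09 TPM in Saline + MG-REP and at 18.08 to 19.62 TPM in Saline + CTRL, without overlap. The 6 measured border macrophage markers summed to 1320.34, 687.35 and 688.76 TPM in Saline + MG-REP, above the 422.06 to 567.84 TPM of Saline + CTRL. Of these, Pf4 was higher without overlap, at 407.69 to 900.99 TPM against 121.88 to 156.39 TPM, Mrc1, Cbr2, Lyve1 and F13a1 overlapped between the groups, and Cd163 was lower, at 0 to 0.06 TPM against 0.27 to 0.86 TPM. The part of these markers in the result was not tested either. The microglia marker sum was lower, at 24895 to 28374 TPM in Saline + MG-REP against 35292 to 51118 TPM in Saline + CTRL. In such bulk RNA, a different share of a cell type and a different amount of RNA per cell cannot be told apart.

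Xist, which is transcribed in female cells, was at 124.09 TPM or more in all 6 MG-REP libraries and in library 1 of either CTRL group, and at 0.29 TPM or less in CTRL libraries 2 and 3. Sex and repopulation therefore coincide in part, and Cybb lies on the X chromosome. Cybb was 44.73 TPM in the Saline + CTRL library with Xist and 43.38 and 44.65 TPM in those without it. With log2 Xist as a covariate, the Cybb, Cyba, Ncf1 NR_104383 and Rac2 calls held. No MG-REP library was without Xist, so this fit cannot fully separate sex from repopulation.

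In offspring of MIA dams, none of the 8 oxidase transcripts differed between MIA + MG-REP and MIA + CTRL, where 0.555% of all transcripts did (79 of 14225). At an unadjusted p under 0.05 the count of oxidase transcripts was also 0, and that of all transcripts was 882 of 14225. All 8 log2 differences were above 0, with a median of 0.25 against -0.08 for all transcripts, and the adjusted p-values ran from 0.925 to 0.979 (limma). The sign depended on library 1 of MIA + CTRL for 3 of them, and without it Rac2 was at -0.09, Hvcn1 NM_001042489 at -0.12 and Hvcn1 NM_028752 at -0.03.

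Cybb was 41.38, 44.91 and 46.3 TPM in MIA + CTRL and 60.53, 68.21 and 45.4 TPM in MIA + MG-REP. The third repopulated library fell within the range of the controls, and the log2 difference was 0.37 with an approximate 95% interval of -0.11 to 0.84. The upper end of that interval is well under the Cybb change in Saline offspring. For Ncf1 NR_104383 the values were 2.2, 2.04 and 3.12 TPM in MIA + CTRL and 4.38, 3.44 and 2.43 TPM in MIA + MG-REP, again with overlap, and the interval ran from -0.05 to 0.74. Cyba was 102 ± 27.1 TPM in MIA + CTRL and 124 ± 14.6 TPM in MIA + MG-REP (SD, n = 3 each), with an interval of -0.09 to 0.71. These intervals leave room for a moderate rise in each of the 3 genes.

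**Figure D3:**
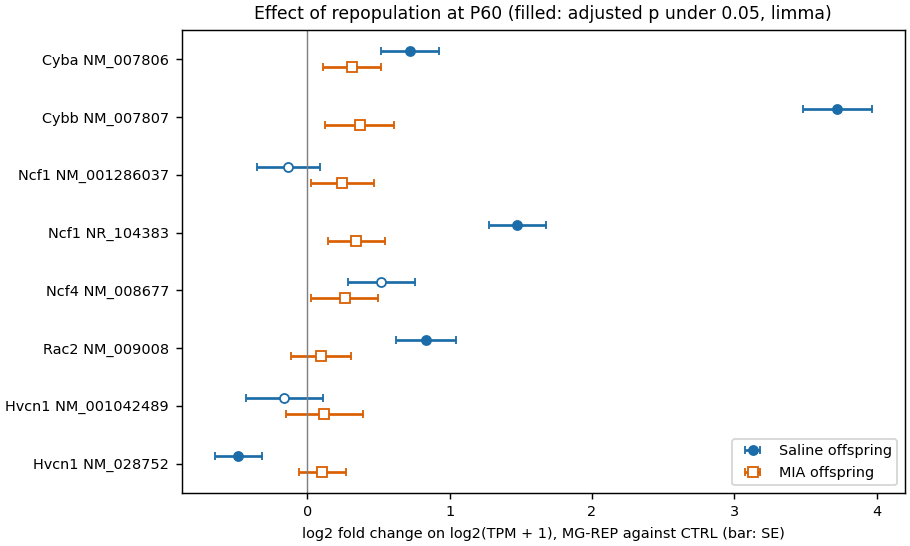
Log2 fold change of MG-REP against CTRL on log2(TPM + 1) for the 8 oxidase transcripts in Saline (blue circles) and MIA offspring (orange squares), with the SE from limma; filled symbols have an adjusted p under 0.05. Cybb stands at 3.72 in Saline and at 0.37 in MIA offspring, and no MIA symbol is filled.

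The difference between the 2 repopulation effects was tested directly. It was lower in MIA offspring for 2 of the 8 oxidase transcripts, Cybb and Ncf1 NR_104383, where 6.09% of all transcripts were lower. The difference, MIA minus Saline, was -3.36 ± 0.34 on the log2 scale for Cybb (SE, limma adjusted p = 3.58e-07) and -1.13 ± 0.28 for Ncf1 NR_104383 (limma adjusted p = 0.0104). For Rac2 the difference of -0.74 ± 0.30 and for Cyba that of -0.41 ± 0.29 did not pass the test (limma adjusted p = 0.129 and 0.458), so a smaller effect in MIA offspring was not shown for these genes.

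A direct comparison of the repopulated groups, MIA + MG-REP against Saline + MG-REP, shares the libraries of both groups with the comparisons above. Here 3 of the 8 oxidase transcripts were lower in MIA + MG-REP, where 11.0% of all transcripts were lower. Cybb was 10.3-fold higher in Saline + MG-REP by mean TPM (log2 fold change -3.36 ± 0.24, SE, limma adjusted p = 3.06e-10). Ncf1 NR_104383 was at -1.53 ± 0.20 (limma adjusted p = 4.53e-06) and Rac2 at -0.88 ± 0.21 (limma adjusted p = 0.00393). Cyba did not overlap between the groups, at 110.25 to 139.38 TPM in MIA + MG-REP and 171.09 to 202.76 TPM in Saline + MG-REP, but just missed the threshold (log2 fold change -0.55 ± 0.20, limma adjusted p = 0.0546). All 6 libraries of this comparison had Xist at 159.07 to 174.29 TPM.

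Across development, the oxidase transcripts did not follow 1 course. Rac2 was highest before and shortly after birth, both Ncf1 transcripts were highest at P20, and Cybb and Cyba had no step between consecutive ages that passed the test in either treatment. Values of the groups are set out below by component.

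Cybb was at 64.5 ± 8.98 TPM in Saline offspring at E17, at 48.5 ± 1.81 at P7 and at 34.6 ± 11 at P20, and it was 44.3 ± 0.757 at P60 on control chow (SD, n = 3 each), with no step past the threshold. Ordered by mean TPM, Saline + MG-REP stood first among the 10 groups without overlap with the second, E17 Saline, which it exceeded 9.30-fold. The remaining groups lay between 34.6 and 64.5 TPM, and among them only P7 Saline and Saline + CTRL, at positions 5 and 6, were neighbours without overlap. Cyba had Saline + MG-REP first too, in a narrower order from 183 TPM there to 102 TPM in MIA + CTRL, and all neighbouring groups overlapped. Cyba in Saline + MG-REP was 1.09 times its mean of 167 ± 19.5 TPM in Saline offspring at E17, with which it overlapped.

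The Ncf1 transcript NR_104383 rose through early life and then fell. In Saline offspring it was 1.55, 2.63 and 2.24 TPM at E17, 5.26, 3.94 and 5.7 TPM at P7, 12.4, 10.63 and 16.62 TPM at P20, and 3.25 to 3.98 TPM at P60 on control chow. Consecutive ages did not overlap, and the P60 range met that of P7 only between 3.94 and 3.98 TPM. The step from E17 to P7 was 0.93 ± 0.20 (log2, SE, limma adjusted p = 0.00872), where 3.09% of all transcripts were higher and 1 of the 8 oxidase transcripts was. The step from P7 to P20 was 1.24 ± 0.20 (limma adjusted p = 4.19e-05), and from P20 to P60 it fell by 1.64 ± 0.20 (limma adjusted p = 9.11e-05), again as 1 of 8, where 2.49% of all transcripts were lower. The first of these calls was lost under quantile normalization, with only the compared groups in the fit and without library 1 of E17 Saline (limma adjusted p = 0.0765, 0.0723 and 0.0584), and the last with only the compared groups (limma adjusted p = 0.0763). Saline + MG-REP at 11.5 TPM and P20 Saline at 13.2 TPM overlapped for this transcript. Xist was at 171.83 to 193.47 TPM in all P20 libraries. Libraries 2 and 3 of either CTRL group had 0.29 TPM or less. Age and sex therefore coincide in part between P20 and P60, in Saline and in MIA offspring.

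MIA offspring gave the same sequence for Ncf1 NR_104383, with 0.917 ± 0.309, 5.09 ± 0.328, 11.3 ± 1.28 and 2.45 ± 0.583 TPM at E17, P7, P20 and P60 on control chow (SD, n = 3 each). The steps were 1.68 ± 0.20 from E17 to P7, 1.01 ± 0.20 from P7 to P20 and -1.84 ± 0.20 from P20 to P60 (log2, SE, limma adjusted p = 1.95e-05, 0.000395 and 1.53e-05). It was the 1 oxidase transcript of 8 that was higher in the first step and the 1 that was lower in the last, where 1.59% and 1.57% of all transcripts were, and the first call was lost with only the compared groups in the fit (limma adjusted p = 0.0978). The second Ncf1 transcript, NM_001286037, passed the test only from P7 to P20, where it rose in Saline (1.21 ± 0.22, limma adjusted p = 0.000189) and in MIA offspring (0.79 ± 0.22, limma adjusted p = 0.00782), with at most 5.94 estimated reads per library at P7 and at most 40.9 at P20. The call in MIA offspring was lost without library 1 of P7 MIA (0.61, limma adjusted p = 0.0578).

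Between P7 and P20, 3 of the 8 oxidase transcripts were higher and 1 was lower in Saline offspring, where 16.1% of all transcripts were higher and 20.1% lower. In MIA offspring the counts were again 3 and 1, where 13.1% and 22.5% of all transcripts were. Marker sums of other cells moved over the same interval, from a median of 161 to 1484 TPM for oligodendrocytes and from 1835 to 709.97 TPM for border macrophages in Saline offspring, and from 146 to 1056 TPM and from 1916 to 633.4 TPM in MIA offspring. The microglia marker sum went from a median of 26117 to 36753 TPM in Saline and from 28492 to 44590 TPM in MIA offspring, and the part of these shifts in the oxidase values was not tested. The lower transcript was Rac2 in both. Rac2 was 308.58, 266.69 and 264.35 TPM at P7 and 105.18, 149.49 and 172.73 TPM at P20 in Saline offspring, without overlap (log2 fold change -0.995 ± 0.21, SE, limma adjusted p = 0.000794). In MIA offspring it went from 249 ± 63.9 to 138 ± 4.30 TPM (SD, n = 3 each), a log2 fold change of -0.81 ± 0.21 (limma adjusted p = 0.00443), which was lost under median-ratio scaling (-0.70, limma adjusted p = 0.0558). Rac2 in Saline + MG-REP, at 227 TPM, stood between the P7 and the P20 groups, and apart from all groups of P20 and P60.

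Ncf4 went the other way in Saline offspring, from 48.54, 92.19 and 87.1 TPM at P7 to 89.79, 127.47 and 139.23 TPM at P20. The lowest P20 library lay below the highest P7 library, and the rise of 0.67 ± 0.23 (log2, SE, limma adjusted p = 0.0286) was lost without library 1 of P7 Saline (0.38, limma adjusted p = 0.235). In MIA offspring Ncf4 was at 65.78 to 104.04 TPM at P7 and 106.56 to 123.49 TPM at P20 and did not pass the test (log2 fold change 0.41 ± 0.23, limma adjusted p = 0.184). Hvcn1 NM_028752 rose in MIA offspring from 0.14 ± 0.0458 to 0.687 ± 0.357 TPM (SD, n = 3 each, log2 fold change 0.55 ± 0.16, limma adjusted p = 0.0120), and without library 1 of P20 MIA it did not pass (limma adjusted p = 0.103). Ncf4, like Cybb, had its highest group mean in Saline + MG-REP, at 197 TPM, and Hvcn1 NM_001042489 had overlapping neighbours throughout its order, from 1.30 TPM in E17 MIA to 3.02 TPM in Saline + CTRL.

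Prenatal immune activation alone was compared at each age, as MIA against Saline on control chow, and no oxidase transcript passed the test at E17, P7, P20 or P60, or averaged over the 4 ages. The share of all transcripts called was 0% in each of the 5 comparisons (limma). At an unadjusted p under 0.05, 1 oxidase transcript was found at E17, 1 at P7, none at P20 or P60, and 2 in the average, where 585, 335, 457, 256 and 477 of all transcripts were. The E17 and the P7 transcript, both low in level, had groups that did not overlap, and the share of all transcripts without overlap was not counted. Ncf1 NR_104383 did not overlap at P60 either, at 2.04 to 3.12 TPM in MIA + CTRL and 3.25 to 3.98 TPM in Saline + CTRL. Ncf1 NR_104383 at E17 was 1.55, 2.63 and 2.24 TPM in Saline and 0.64, 1.25 and 0.86 TPM in MIA offspring (log2 difference -0.71 ± 0.20, SE, limma adjusted p = 0.754). Hvcn1 NM_028752 at P7 was 0.59, 0.53 and 0.61 TPM in Saline and 0.19, 0.1 and 0.13 TPM in MIA offspring (log2 difference -0.47 ± 0.16, limma adjusted p = 1). The latter rests on 6.29 to 7.36 estimated reads against 1.04 to 2.08.

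At E17, 7 of the 8 log2 differences were below 0, with a median of -0.28 against 0.10 for all transcripts. All 8 were below 0 at P60 on control chow, with a median of -0.16 against 0.03. At P7 and at P20, 5 of the 8 were, with medians of -0.14 against 0.03 and -0.01 against -0.05. The average over these ages, which shares their libraries, had all 8 below 0, with a median of -0.15 against 0.03. Within the E17 MIA group, libraries 1 and 3 were low in both the oxidase and the microglia markers. Their Cybb was 43.22 and 41.81 TPM and their marker sums 16294 and 19900 TPM, while library 2 had 73.69 TPM and 27683 TPM. Neuron markers summed to 862.75 TPM in library 1 and to 106.4 to 222.7 TPM in the other E17 libraries. Neutrophil and monocyte markers summed to 420 and 544 TPM and border macrophage markers to 788 and 519 TPM in libraries 1 and 3, against 1682 and 1271 TPM in library 2, and the part of these markers in the oxidase values was not tested. Library 3 of P7 MIA likewise had the lowest Cybb of its group, at 23.27 TPM, with a marker sum of 19749 TPM. For Cybb, the approximate 95% interval of the averaged difference was -0.37 to 0.10 (log2), and for Rac2 it was -0.36 to 0.05.

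Genes around the oxidase were read from 4 lists drawn up by function. Among 7 measured relatives (of 15 genes listed), 1 was higher and 1 lower in Saline + MG-REP than in Saline + CTRL, where 11.9% and 14.9% of all transcripts were. The median log2 fold change of the relatives was 0.15. The higher was Rap1b, a small GTPase that associates with the cytochrome (0.45 ± 0.14, SE, limma adjusted p = 0.0172), and the lower was Noxo1, the organizer of the epithelial oxidase NOX1 (-0.89 ± 0.21, limma adjusted p = 0.00222). Nrros, a protein that lowers oxidase output by acting on the cytochrome and also anchors latent TGF-beta, was at 182 and 205 TPM in the 2 groups (log2 fold change 0.16 ± 0.16, limma adjusted p = 0.519). BC017643, also known as Cybc1, a chaperone of the cytochrome, was at 2.61 and 2.48 TPM (log2 fold change -0.06 ± 0.28, limma adjusted p = 0.899). Neither of these partners of the cytochrome passed the test.

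Of the upstream activators (22 transcripts of 16 genes), 4 were higher and 3 lower in Saline + MG-REP, where 11.9% and 14.9% of all transcripts were. The median log2 fold change of the activators was 0.10. The largest rises were those of Vav3, an exchange factor for Rac GTPases (0.85 ± 0.20, SE, limma adjusted p = 0.00207), and Coro1a NM_009898, a coronin that binds actin and p40phox (0.75 ± 0.21, limma adjusted p = 0.00822). The largest fall was that of Prkca, a protein kinase C that phosphorylates p47phox (-1.62 ± 0.14, limma adjusted p = 3.24e-09). Its relative Prkcb rose by 0.38 ± 0.10 (limma adjusted p = 0.00657), so that kinases of the same substrate moved in opposite directions.

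The list drawn up for NADPH supply, not all of whose enzymes form NADPH themselves, gave 4 higher and 0 lower of 9 transcripts. Of all transcripts 11.9% and 14.9% were, and the list median was -0.05. The 4 were Pgd (1.07 ± 0.18, SE, limma adjusted p = 0.000101), Tkt (1.01 ± 0.12, limma adjusted p = 1.04e-06), Taldo1 (0.76) and G6pdx (0.63), all enzymes of the pentose phosphate pathway, while Pgls of the same pathway was at -0.37 ± 0.27 and did not pass the test (limma adjusted p = 0.357). Of 22 transcripts for the removal of superoxide and peroxide, 5 were higher and 1 lower, beside the same shares of all transcripts, with a median of 0.23. The largest rises were those of Txn1, or thioredoxin (1.63 ± 0.16, limma adjusted p = 4.31e-08), and the peroxiredoxin Prdx1 (1.11 ± 0.14, limma adjusted p = 1.51e-06), and the fall was that of Gclc, which catalyses the first step of glutathione synthesis (-0.43 ± 0.08, limma adjusted p = 0.000270). Superoxide dismutase Sod2, which acts in mitochondria, rose by 0.47 ± 0.14 (limma adjusted p = 0.0169).

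In MIA offspring none of the transcripts of the 4 lists passed the test for MG-REP against CTRL, where 0.555% of all transcripts did. The list medians were -0.02, 0.02, -0.03 and -0.10. In the direct test of the difference between the repopulation effects, MIA minus Saline, 4.42% of all transcripts were higher and 6.09% lower. Of the relatives 1 of 7 was higher and 0 were lower, and of the activators 1 of 22 was higher and 1 lower. Of the NADPH supply list 0 of 9 were higher and 2 lower, and of the removal transcripts 1 of 22 was higher and 4 were lower. The higher ones were Noxo1 (0.93 ± 0.30, SE, limma adjusted p = 0.0446), Prkca (1.05 ± 0.20, limma adjusted p = 0.000802) and Gclc (0.49 ± 0.12, limma adjusted p = 0.00634). Among the lower were Vav3 (-0.90 ± 0.28, limma adjusted p = 0.0396), Txn1 (-1.64 ± 0.23, limma adjusted p = 3.08e-05) and Tkt (-1.05 ± 0.18, limma adjusted p = 0.000235).

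**Figure D4:**
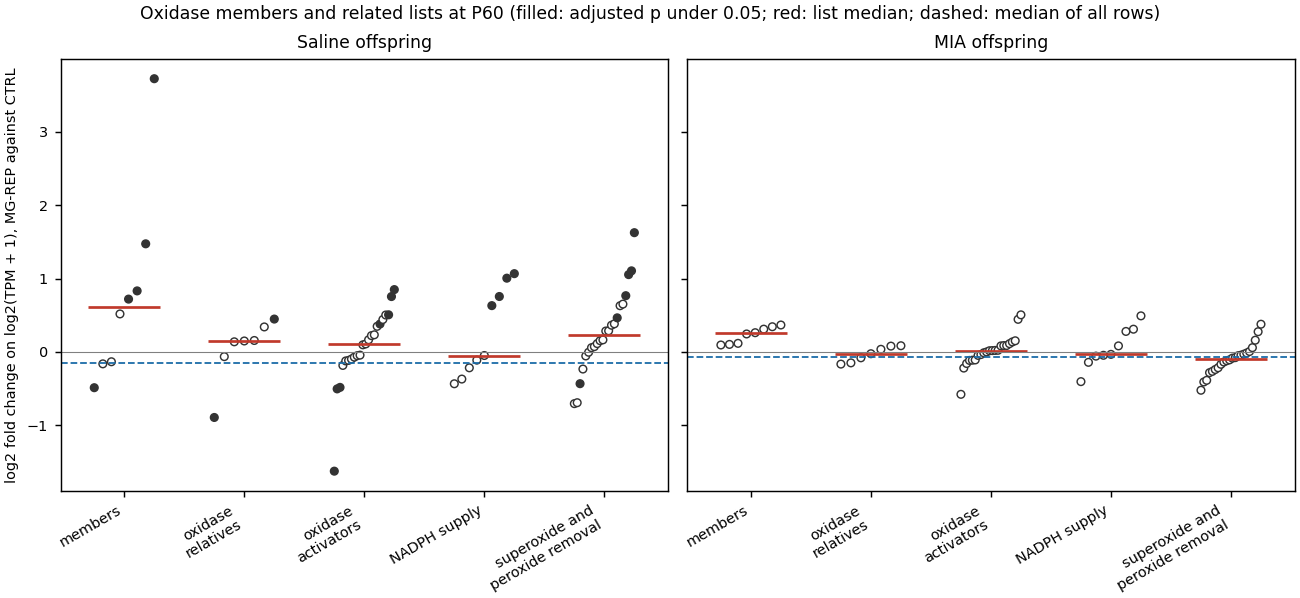
Log2 fold change of MG-REP against CTRL at P60 for the 8 oxidase transcripts and the transcripts of the 4 lists, in Saline (left) and MIA offspring (right). Each point is a transcript, filled where the limma adjusted p is under 0.05, with the list median in red and the median of all 14225 transcripts dashed; Cybb at 3.72 is the highest point on the left, and no point on the right is filled.

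Across the 30 libraries the oxidase transcripts varied with each other only in part, given as Pearson's r of log2(TPM + 1) without a test, since libraries of a group share age and treatment. The highest value was that of Cyba with Rac2 (0.80), followed by Cyba with Cybb (0.66) and the 2 Ncf1 transcripts with each other (0.64). Rac2 ran against Hvcn1 NM_028752 (-0.69) and Ncf1 NM_001286037 (-0.55). The 3 Saline + MG-REP libraries set the relation of Cybb to Ncf1 NR_104383, which was 0.25 over 30 libraries and -0.49 over the 27 others.

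Each transcript had its own nearest pattern among the other genes with a mean of at least 1 TPM. For Cybb these were Cyp4f18, a cytochrome P450, and Runx3, a transcription factor (r = 0.98 and 0.97 over 30 libraries, 0.85 and 0.69 without Saline + MG-REP). For Cyba they were Fcer1g, the common gamma chain of Fc receptors, and Ctsz, a lysosomal protease (0.93 and 0.93), and for Rac2 the actin nucleation subunits Arpc2 and Arpc1b (0.98 and 0.97). Ncf4 was nearest to Ntpcr and Dock8 (0.93 and 0.91), and Hvcn1 NM_001042489 to Rnaset2b and Blnk (0.89 and 0.88). Hvcn1 NM_028752 was nearest to Nr3c1 and Tns3 (0.81 and 0.81), and Ncf1 NM_001286037 to Spred1 and Eif2b3 (0.87 and 0.84). Ncf1 NR_104383 was nearest to Gtf2ird2 and Osm (0.94 and 0.89). Gtf2ird2 lies beside Ncf1 on chromosome 5, with 1906 bases between the genes, and was at 29.84 to 110.23 TPM.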

How the data were processed

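Per the study's methods, the authors prepared non-stranded libraries from poly(A) RNA. Reads were mapped to the mm10 genome by Rsubread, and featureCounts assigned them to features of a UCSC annotation. Genes that reached a CPM of 2 in fewer than 3 libraries were removed. The deposited values are TPM computed by the authors, 1 column per library, by a formula not given in the sources used here. TPM keep no depth. Reads per library (8030000 to 12850000) were inferred from the spacing of low TPM and are approximate, with 73.6% to 82.2% of low values within 0.2 of a whole read. They lie below the reads per sample that the study states, and the cause of this gap was not tested. The estimated reads per transcript rest on the same spacing. By this estimate Hvcn1 NM_028752, with at most 12.8 reads in a library, would fall short of the CPM filter although it is in the table. The cause was not tested. Sums per library were 995495 to 998012 TPM.

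In R 4.3.3, limma 3.58.1 was fitted to log2(TPM + 1) of all 14225 transcripts and 30 libraries, 1 mean per group, with a mean-variance trend and 15 two-sided contrasts, and p-values were adjusted by Benjamini-Hochberg at 0.05 over all transcripts. The fit was tested on simulated data. Log2 fold changes on this scale understate those of low transcripts. The 95% intervals were taken from the SE by a normal approximation and are somewhat narrower than the moderated test would give. With 3 libraries against 3 an exact permutation test allows no p below 0.1, so none is given. In 1 comparison, MIA against Saline at P20, all 3 pairs of libraries with the same replicate number had deviations from their group means that correlated over 0.1 (0.238, 0.104 and 0.132), as a hint from the data that the numbers pair there, and with the number as a block no oxidase transcript passed the test either. Groups overlap where the ranges of their libraries do.

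All oxidase transcripts are named, with Rac1, Nrros and Cybc1, up to 2 genes a direction of each list with the largest change and no overlap, and the 2 nearest patterns of each transcript. Prkcb, Sod2, Taldo1, G6pdx and Pgls were added after their values were seen. Single genes of the lists that could not be included are not reported here. The genes and lists were chosen with earlier results of these data known. Gene coordinates are those of RefSeq genes (GRCm38.p6). Plots were made in matplotlib 3.10.9 under Python 3.11.15.

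The choices varied were the pseudocount (0.1), the removal of transcripts with a mean TPM under 1, the scaling (median ratios, or quantile normalization), the mean-variance trend (none), the groups in the fit (only those compared), log2 Xist or the replicate number as a further term, and the libraries (each left out).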

Additional observations from a re-analysis of the deposited data

Results flagged for a closer look

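The effect of repopulation (MG-REP against CTRL at P60) differed between Saline and MIA offspring for 2 oxidase transcripts, by a test of the difference itself. For Cybb the effect in MIA offspring was lower by a log2 value of -3.36 (limma adjusted p = 3.58e-07), and for Ncf1 NR_104383 by -1.13 (limma adjusted p = 0.0104). In Saline offspring all 3 repopulated libraries were above all 3 controls for both transcripts, and in MIA offspring 2 of 3 repopulated libraries were.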

How the results depend on the processing

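Of the log2 fold changes of oxidase transcripts recomputed under the alternatives, 612 kept direction and side of the threshold, 21 kept the direction but lost the call, and 6 changed sign. The Cybb and Ncf1 NR_104383 calls for repopulation in Saline offspring, for the difference between the repopulation effects and for MIA + MG-REP against Saline + MG-REP held in every setting run. Median-ratio scaling moved the median of all transcripts for MG-REP in Saline offspring from -0.145 to -0.0488. Counts of oxidase transcripts called moved by over 1.5 times in these cases, and the cause was not tested. For P7 against E17 in Saline offspring the count of 1 became 2 with a pseudocount of 0.1, 0 with quantile normalization and 0 with only the compared groups in the fit, and it ran from 0 to 1 with a library left out (0 without E17 Saline library 1). For P60 against P20 in Saline offspring it was 0 with only the compared groups and ran from 1 to 2 with a library left out (2 without P20 Saline library 1). For P7 against E17 in MIA offspring it was 0 with only the compared groups. For P20 against P7 in MIA offspring it was 2 of the 6 transcripts left by the filter on mean TPM, against 4 of 8. For MG-REP in Saline offspring the count was 3 to 5 with a library left out, with the 3 found on omission of the first repopulated library. Under quantile normalization the MG-REP effect in Saline offspring turned positive for Ncf1 NM_001286037 (0.0084) and Hvcn1 NM_001042489 (0.0077), which had no call. In MIA offspring the leave-one-out effects of MG-REP ran from -0.0895 to 0.20 for Rac2, from -0.12 to 0.35 for Hvcn1 NM_001042489 and from -0.0342 to 0.26 for Hvcn1 NM_028752, which was also at -0.01 without MIA + MG-REP library 1. Replicate numbers recur across groups, and no label says what a number stands for. Of 21 pairs of same-numbered libraries in groups compared, 12 had deviations from the group means that correlated over 0.1 (range -0.525 to 0.656), and in 11 the own number was the best match. With the replicate number as a block, the count for MG-REP in Saline offspring was 5 and the Cybb effect 3.72 (limma adjusted p = 1.68e-08), and no call of an oxidase transcript changed. The few reads of Ncf1 NM_001286037 and Hvcn1 NM_028752 limit what can be said of them, and the filter on mean TPM removed both.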
